A study of Mus musculus with 6 samples.

Results

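The chaperone genes described here are those whose symbol marks a heat shock protein (Hspa, Hspb, Hspd, Hspe, Hsph, Hsp90 and their relatives), a J-protein (Dnaja, Dnajb, Dnajc), a BAG protein (Bag1 to Bag6) or a subunit of the cytosolic chaperonin (Cct2 to Cct8). The rule reads the symbol and no measured value, although the family was proposed with earlier results of these data known. Of 19938 genes measured, 87 met it: 8 small heat shock proteins, 45 J-proteins of the HSP40 family, 13 members of the HSP70 family, 2 HSP90 genes, 11 chaperonin genes, 6 BAG genes and 2 proteins that bind heat shock proteins, Hspbp1 and Hspbap1. Soleus muscle, the slow postural muscle of the calf, was taken from male C57BL/6 mice aged 8 weeks, and its RNA was read on whole-transcript Affymetrix arrays (Mouse Gene 1.0 ST). The 3 groups were control, hindlimb suspension (HS), in which the hind legs no longer carry weight and the soleus wastes, and hindlimb suspension with electroacupuncture, in which current is passed through acupuncture needles. Each group had 2 arrays. The labels give no length of suspension, no needle site and no current, and no group received electroacupuncture without suspension. Nor do they tie arrays to individual animals: duplicates may be separate mice or repeat hybridizations, so the p-values measure the spread between these arrays, which may be technical.

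Chaperones bind unfolded or partly folded proteins. HSP70 proteins hold a client in a cycle of ATP binding and hydrolysis, J-proteins of the HSP40 family bring clients and start the hydrolysis, and HSP110 and BAG proteins release the nucleotide. HSP90 takes over selected clients, ring-shaped chaperonins fold proteins inside a chamber, and small heat shock proteins hold unfolding proteins without using ATP. In the cytosol many of these genes are switched on by heat shock factor 1 (HSF1), which binds heat shock elements; in the endoplasmic reticulum (ER) the unfolded protein response acts on ER stress elements. In slow muscle, small heat shock proteins sit on sarcomeres and the HSP70 level is known to depend on contractile activity.

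Promoter sequence from RefSeq (GRCm38.p6), from 250 bases before to 50 bases after each start site, was matched for 72 of the 87 genes. The windows below are shown because they belong to genes that fell, or to Hspa1a and Hsp90b1, described beside them, and hold the motif of one of these responses in capitals. A heat shock element is a run of GAA and TTC units with 2 bases between units, searched on both strands as 2 units (GAANNTTC or TTCNNGAA) or as 3. The ER stress element is CCAAT followed, after 9 bases, by CCACG, also on both strands. Each is given 5′ to 3′ on the strand of its gene.
Hspe1 (chr1:55088050-55088079, plus strand): cacggtccgTTCTAGAACCTTCCGGAAggc
Hsph1 (chr5:149636280-149636309, minus strand): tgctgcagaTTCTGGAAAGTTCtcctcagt
Dnajb4 (chr3:152193841-152193870, minus strand): ttcgttcgctgTTCTAGAAagtacagagac
Dnaja4 (chr9:54699458-54699487, plus strand): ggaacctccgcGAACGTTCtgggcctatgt
Hspa1a (chr17:34972242-34972271, minus strand): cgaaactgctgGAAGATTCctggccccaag
Hspa5 (chr2:34771840-34772089, plus strand): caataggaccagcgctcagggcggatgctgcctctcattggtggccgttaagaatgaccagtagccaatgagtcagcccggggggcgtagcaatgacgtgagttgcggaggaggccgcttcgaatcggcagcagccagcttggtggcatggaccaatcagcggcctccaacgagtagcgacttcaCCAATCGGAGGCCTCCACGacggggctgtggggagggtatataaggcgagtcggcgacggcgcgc
Hsp90b1 (chr10:86705633-86705662, minus strand): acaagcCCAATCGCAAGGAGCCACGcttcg

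Hspe1 and its neighbour Hspd1, which encode the mitochondrial chaperonin pair, are read in opposite directions. Their start sites lie 216 bases apart for one Hspd1 start, while the other lies 95 bases inside the Hspe1 side, so that the transcripts overlap, and the Hspe1 element printed above also lies in the window of Hspd1. The Hsph1 element lies inside the transcript, 16 or 37 bases from its start depending on the start site, and the Dnajb4 element begins 14 bases before the start. An element of 3 units was found in 4 of the 72 genes (5.56%: Dnajb6, Hspd1, Hspe1 and Hsph1), against 0.662% of all 27025 genes in the table. Dnajb6, whose window is not printed, did not fall. At a signal barely above background it differed from control by 0.19 in suspension and 0.57 with electroacupuncture (log2), while the others lay below control. The overlapping motif of 2 units was found in 20 of 72 (27.8%), against 17% of all genes. An ER stress element was found in 3 of 72 (4.17%: Hspa5, Hsp90b1 and Dnajc3), against 0.137%, while its first unit alone, CCAAT, was found in 38.9% and 41.1%. The windows of Hspa1l, Hspb7 and Hspa12b held no match to either element. A match is a description of these letters and not a measured binding site.

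Values are the log2 signals that the authors deposited, normalized by robust multi-array average (RMA), and a difference of 1 on this scale is a 2-fold change. Array medians lay between 4.13 and 4.19, and the SD of the difference between the 2 arrays of a group, over all genes, was 0.36 for control, 0.29 for suspension and 0.25 for suspension with electroacupuncture. Of the 87 genes, 78 had a mean signal above 3.50, the 95th percentile of 1027 olfactory receptor genes taken as background. The other 9 were Cct6b, Cct8l1, Dnajb3, Dnajb7, Dnajb13, Dnajc5b, Dnajc5g, Dnajc6 and Dnajc22. All 87 were kept in the tests. In whole muscle, less RNA per cell and fewer cells of a type cannot be told apart.

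In suspended soleus 6 of the 87 chaperone genes were lower than in control and none was higher, by limma with p-values adjusted over all genes at a threshold of 0.05. They were Hspa1l, Hspa5 and Hsph1 of the HSP70 family, the J-proteins Dnajb4 and Dnaja4, and the small heat shock protein Hspb7. The share called lower was 6.90% of the chaperone genes and 0.512% of all genes, and 0.537% of all genes were called higher. The median difference of the 87 genes was -0.13, with 60 below 0, beside 0.01 for all genes. Both suspension arrays lay below both control arrays for 37 of the 87 genes (42.5%, against 18.5% of all genes) and above them for 12 (13.8%, against 21.3%). The calls were not stable: most fits with 1 array left out lost some or all of them, also where that array was from the electroacupuncture group. Such a fit leaves 1 array in a group and fewer degrees of freedom. The differences of the 6 genes stayed below 0 in all alternative fits. Hspa1l lay between -1.68 and -1.57 and Hsph1 between -1.19 and -0.81, and the value nearest to 0 was -0.75, for Dnaja4.

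Suspended soleus that received electroacupuncture also differed from control in 1 direction. By limma 7 chaperone genes were lower and none higher: Hspa1l, Hspa5, Hsph1, Hspa12b, Dnajb4, Dnaja4 and Hspe1. This was 8.05% of the 87 genes, against 0.587% of all genes called lower and 0.446% called higher. The median difference was -0.18, with 61 genes below 0, beside 0.01 for all genes. Both electroacupuncture arrays lay below both control arrays for 42 genes (48.3%, against 20.0% of all genes) and above them for 11 (12.6%, against 21.8%). Both comparisons use the same control arrays, so they are not independent of each other. Here too each fit with 1 array left out lost some or all of the calls, also where that array was from the suspension group. The differences of the 7 genes stayed below 0 in all alternative fits. Hspa1l lay between -1.64 and -1.19, and the value nearest to 0 was -0.69, for Hspa12b.

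**Figure D1:**
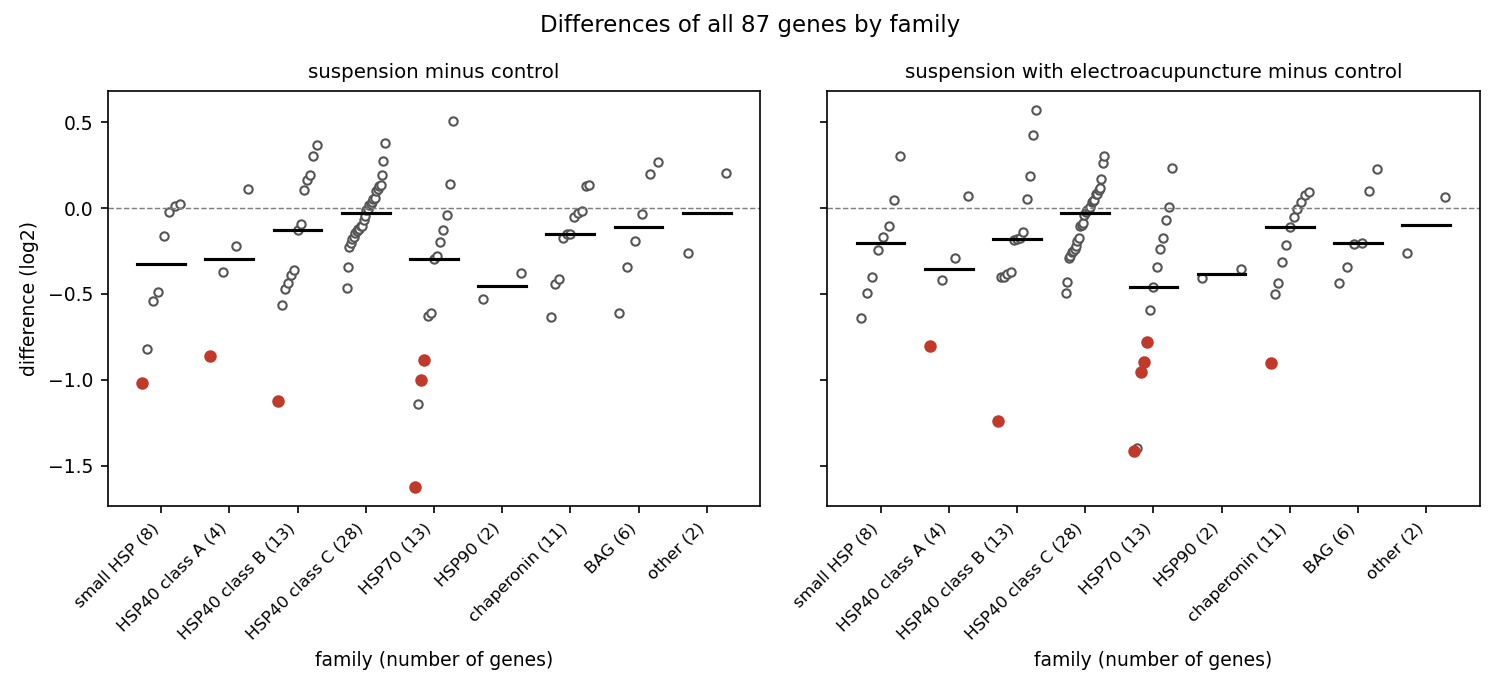
Difference of each of the 87 chaperone genes from control (log2, vertical axis) by family, for suspension (left) and suspension with electroacupuncture (right); filled red points passed the limma threshold, open points did not, and bars mark family medians. All filled points lie below 0, and the HSP70 family has the most of them, 3 on the left and 4 on the right.

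Of the 13 HSP70 genes, 3 fell in suspension and 4 in suspension with electroacupuncture, and 11 were below 0 in each. The family median was -0.30 in suspension and -0.46 with electroacupuncture. Both suspension arrays lay below both control arrays for 9 of the 13 genes (69.2%, against 18.5% of all genes), and the electroacupuncture arrays for 9 (69.2%, against 20.0%). The shares called lower were 23.1% and 30.8%, against 0.512% and 0.587% of all genes.

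Hspa1l, an HSP70 best known from the testis, lay at 8.14 and 8.25 on the control arrays, 6.63 and 6.51 in suspension, and 6.55 and 7.01 with electroacupuncture. The control arrays stood more than 1 log2 unit above the other 4. The difference was -1.62 ± 0.17 (SE), or 3.08-fold lower, in suspension (adjusted p = 0.00618 by limma) and -1.41 ± 0.17 with electroacupuncture (adjusted p = 0.0111 by limma). Its neighbour Hspa1a, the stress-inducible HSP70, lies head to head with it, with start sites 547 bases apart. Hspa1a read 7.53 and 7.59 in control, 6.65 and 6.19 in suspension, and 5.67 and 6.65 with electroacupuncture. Both control arrays were the highest, but the electroacupuncture arrays were nearly 1 log2 unit apart. Neither difference passed, at -1.14 ± 0.28 (adjusted p = 0.113 by limma) and -1.40 ± 0.28 (adjusted p = 0.0619 by limma). Hspa1b, an almost identical copy, was read by the array only in a probe cluster shared with Hspa1a, where the differences were -1.01 and -0.98, so the source of these signals is uncertain.

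Hspa5 encodes BiP, the HSP70 of the ER. Its values were 9.19 and 9.32 in control, 8.47 and 8.27 in suspension, and 8.37 and 8.35 with electroacupuncture. No array of a suspended group reached either control array. It fell by 0.88 ± 0.13 in suspension (1.85-fold, adjusted p = 0.0228 by limma) and by 0.89 ± 0.13 with electroacupuncture (1.86-fold, adjusted p = 0.0212 by limma). This is the gene whose upstream bases, with the ER stress element 65 bases before the start, are printed in full above.

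Hsph1 encodes HSP110, which releases the nucleotide from HSP70. It read 6.75 and 6.36 in control, 5.67 and 5.44 in suspension, and 5.48 and 5.72 with electroacupuncture. The groups did not overlap with control, although the control arrays differed by more than those of the other groups. It fell by 1.00 ± 0.18 in suspension, a 2.00-fold change (adjusted p = 0.0407 by limma), and by 0.95 ± 0.18 with electroacupuncture (adjusted p = 0.046 by limma). The other 2 genes of the HSP110 branch were nearer to control: Hspa4 at -0.30 and -0.34 and Hspa4l at -0.04 and -0.07, in suspension and with electroacupuncture, none past the threshold.

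Hspa12b, a distant HSP70 relative known from endothelial cells, read 6.45 and 6.27 in control, 5.71 and 5.78 in suspension, and 5.61 and 5.54 with electroacupuncture. The 3 groups did not overlap. The difference passed with electroacupuncture (-0.78 ± 0.14, 1.72-fold lower, adjusted p = 0.04 by limma) and not in suspension (-0.61 ± 0.14, adjusted p = 0.0909 by limma), and that between the 2 suspended groups was -0.17 ± 0.14 with an unadjusted p of 0.251. Among 7 endothelial markers the median difference from control was 0.12 in suspension and -0.17 with electroacupuncture. With electroacupuncture 1 marker, Kdr, was called lower (14.3%, against 0.587% of all genes). The log2 of their summed signal was 9.99 and 10.26 in control, 10.25 and 10.10 in suspension, and 9.92 and 9.91 with electroacupuncture; their part in the Hspa12b result was not tested.

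Hspa8, the constitutive HSP70 of the cytosol, read 11.59 and 11.68 in control, 11.05 and 10.97 in suspension, and 10.96 and 11.12 with electroacupuncture. The groups were clear of control, with differences of -0.63 ± 0.13 (adjusted p = 0.0721 by limma) and -0.59 ± 0.13 (adjusted p = 0.0829 by limma) that did not pass. It had 3 probe clusters, which gave -0.72, -0.63 and -0.65 in suspension. Hspa9, the mitochondrial HSP70 known as mortalin, differed by -0.28 and -0.46. Hspa2, known from the testis, had the highest difference of the family in suspension, 0.51 ± 0.22 (unadjusted p = 0.0442, adjusted p = 0.377 by limma), with suspension arrays of 6.42 and 5.75 far from each other.

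**Figure D2:**
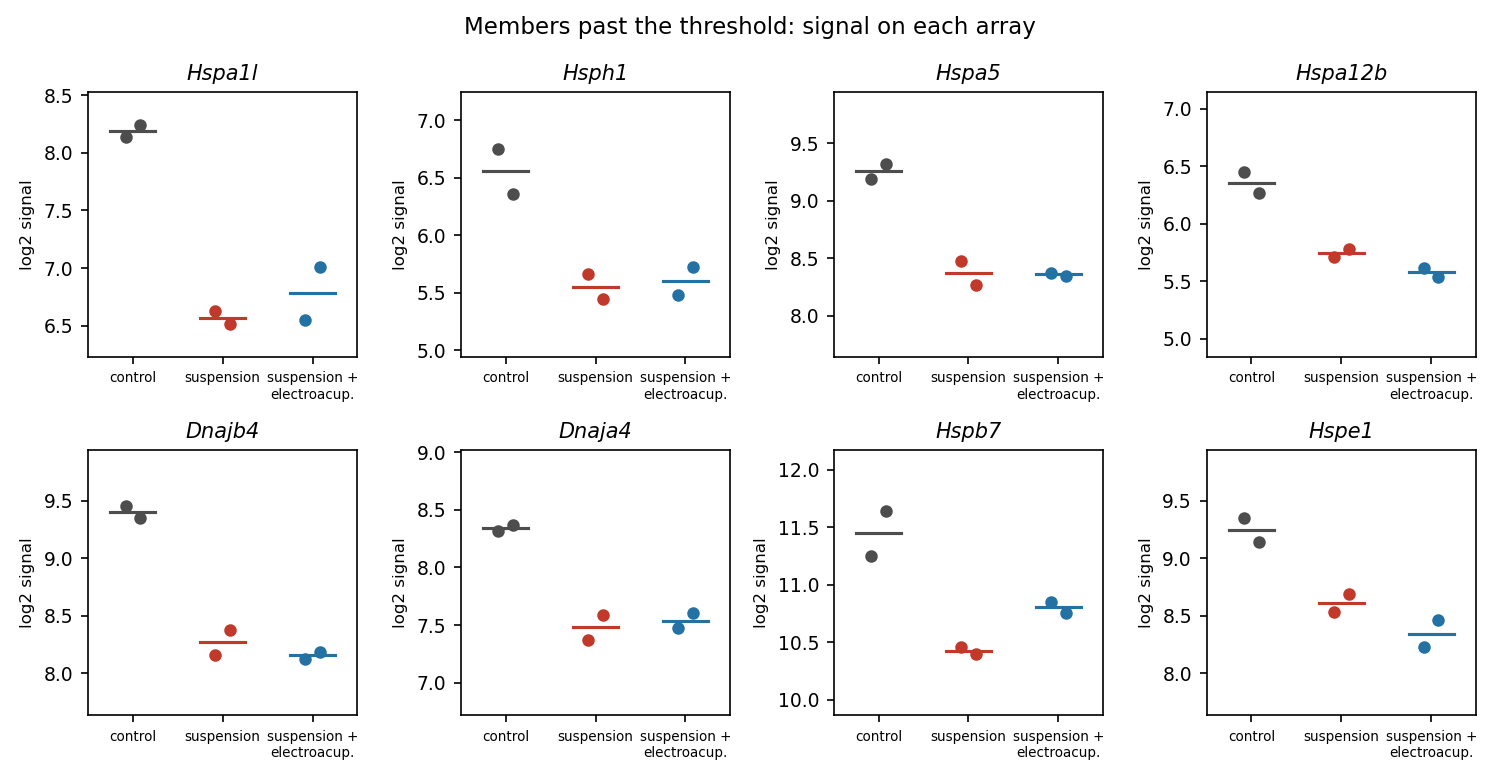
Log2 signal (vertical axis) on each array for the 8 chaperone genes that passed the limma threshold in at least 1 comparison with control; points are arrays, bars are group means, and each panel spans its own range of signal. In every panel both control arrays lie above the other 4 arrays.

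Among the 45 J-proteins 2 fell, Dnajb4 and Dnaja4, in both comparisons with control, and no other passed. This was 4.44% of the family, against 0.512% and 0.587% of all genes called lower. Both suspension arrays lay below both control arrays for 33.3% of the J-proteins (18.5% of all genes) and above them for 15.6% (21.3%). With electroacupuncture these shares were 40.0% (20.0%) and 15.6% (21.8%). The median of the family was -0.09 in suspension and -0.10 with electroacupuncture. By class, the median was -0.30 and -0.36 for the 4 class A genes, -0.13 and -0.18 for the 13 class B genes, and -0.03 in both for the 28 class C genes, a class that shares only the J domain.

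Dnajb4, a class B J-protein of heart and muscle that works with HSP70, read 9.45 and 9.34 in control, 8.16 and 8.38 in suspension, and 8.12 and 8.19 with electroacupuncture. The 4 arrays of the suspended groups lay close together and nearly 1 log2 unit or more below control. It fell by 1.13 ± 0.13 in suspension (2.18-fold, adjusted p = 0.0102 by limma) and by 1.24 ± 0.13 with electroacupuncture (2.36-fold, adjusted p = 0.00812 by limma). Dnaja4, a class A J-protein, read 8.32 and 8.37 in control, 7.37 and 7.59 in suspension, and 7.48 and 7.60 with electroacupuncture. Here too the suspended groups overlapped each other and neither overlapped control. It fell by 0.86 ± 0.13 in suspension (1.82-fold, adjusted p = 0.0251 by limma) and by 0.80 ± 0.13 with electroacupuncture (1.75-fold, adjusted p = 0.0325 by limma).

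Other J-proteins with a part in the heat shock response or the ER had smaller differences that did not pass. Dnajb1, the HSP40 induced by heat, read 4.78 and 4.64 in control, 4.21 and 4.08 in suspension, and 4.36 and 4.25 with electroacupuncture. Its groups did not overlap, and its differences from control were -0.56 ± 0.15 and -0.40 ± 0.15. Dnajb5, a close relative of Dnajb4, read 7.05 and 7.36 in control, 6.62 and 6.85 in suspension, and 7.03 and 7.09 with electroacupuncture, so that the electroacupuncture arrays overlapped control and not suspension. The ER J-proteins Dnajb9 and Dnajb11 differed by -0.44 and -0.39 in suspension and by -0.37 and -0.40 with electroacupuncture. Dnaja1 differed by -0.37 and -0.29, but a dimmer probe cluster of that gene gave 0.19 in suspension. Dnajc27, a J-protein with a small GTPase domain, differed by -0.46 and -0.49, the lowest values of class C. Dnajb12, a J-protein of the ER membrane, was the highest of those above background in suspension, at 0.37 ± 0.15, and stood at 0.43 with electroacupuncture (unadjusted p = 0.0359 and 0.0187, neither past the threshold in limma). Dnajb6, which acts at the Z-disc of muscle, had a mean signal barely above background in its cluster, and its suspension arrays of 3.05 and 3.87 enclosed the control arrays. With electroacupuncture it read 4.07 and 3.60, above both control arrays of 3.38 and 3.15, and its difference of 0.57 ± 0.28 was the highest of the 87 genes in that comparison and did not pass (adjusted p = 0.453 by limma). Dnajc5, a J-protein of synaptic vesicles, was 0.13 and 0.12 from control.

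Of the 8 small heat shock proteins 1 passed, Hspb7, in suspension against control (12.5%, against 0.512% of all genes called lower). Hspb7, a small heat shock protein of heart and skeletal muscle that binds filamin, read 11.25 and 11.64 in control, 10.46 and 10.40 in suspension, and 10.85 and 10.76 with electroacupuncture. The 3 groups did not overlap, and the electroacupuncture arrays lay between. It fell by 1.02 ± 0.15 in suspension (2.03-fold, adjusted p = 0.0234 by limma) and stood at -0.64 ± 0.15 with electroacupuncture (adjusted p = 0.108 by limma). Between the suspended groups it was 0.38 ± 0.15 higher with electroacupuncture, with a 95% interval from 0.03 to 0.73, an unadjusted p of 0.0381 and an adjusted p of 1.00 by limma.

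Hspb1, also called HSP25, protects actin filaments. It read 9.92 and 10.47 in control, 9.55 and 9.20 in suspension, and 9.16 and 10.43 with electroacupuncture. The electroacupuncture arrays were more than 1 log2 unit apart, one below every other array and the other between the control arrays, and its differences of -0.82 ± 0.36 and -0.40 ± 0.36 did not pass. Hspb6, or HSP20, which is phosphorylated in relaxing muscle, read 12.52 and 13.07 in control, 12.44 and 12.17 in suspension, and 12.55 and 12.71 with electroacupuncture. Its electroacupuncture arrays overlapped control and lay above suspension, and no difference passed. Hspb2 and Hspb3, which form a complex with each other in muscle, differed by -0.02 and -0.16 in suspension, and Hspb8, the partner of Bag3 in chaperone-assisted autophagy, by 0.02, with an interval from -0.28 to 0.32. Hspb11, which despite its symbol is a protein of ciliary transport, differed by -0.54 at a signal close to background, and Hspb9 by 0.01.

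**Figure D3:**
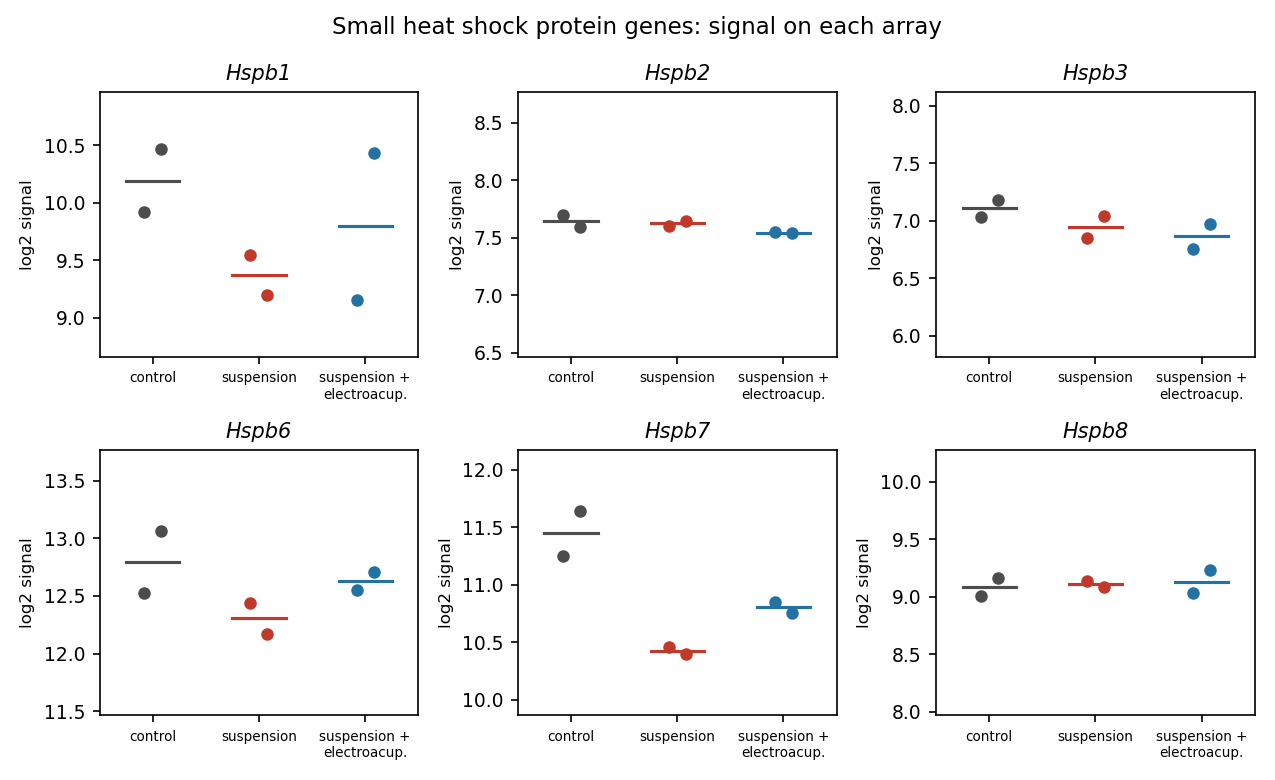
Log2 signal (vertical axis) on each array for 6 of the 8 small heat shock protein genes; points are arrays, bars are group means, and each panel spans its own range. Hspb7 separates the 3 groups, Hspb1 has electroacupuncture arrays of 9.16 and 10.43, and Hspb2, Hspb3 and Hspb8 stay within a narrow range on all 6 arrays.

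Both HSP90 genes analysed lay below control without passing. Hsp90aa1, the inducible HSP90 of the cytosol, which newly made myosin needs for folding, read 6.92 and 6.76 in control, 6.44 and 6.18 in suspension, and 6.54 and 6.43 with electroacupuncture. Control did not overlap the other groups, and the differences were -0.53 ± 0.15 (adjusted p = 0.154 by limma) and -0.36 ± 0.15. Its 3 probe clusters gave between -0.53 and -0.46 in suspension. Hsp90b1, the HSP90 of the ER known as GRP94, read 7.90 and 7.71 in control, 7.56 and 7.30 in suspension, and 7.50 and 7.29 with electroacupuncture. Its differences were -0.38 and -0.41, both with non-overlapping arrays and adjusted p of 0.343 and 0.295 by limma. Hsp90ab1 was not analysed here.

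The chaperonin genes fall into the mitochondrial pair and the cytosolic ring, TRiC. Hspe1, the lid of the mitochondrial chaperonin, read 9.35 and 9.14 in control, 8.53 and 8.69 in suspension, and 8.23 and 8.46 with electroacupuncture. The 3 groups did not overlap, with the electroacupuncture arrays lowest. It fell by 0.90 ± 0.14 with electroacupuncture (1.87-fold, adjusted p = 0.0286 by limma) and stood at -0.64 ± 0.14 in suspension (adjusted p = 0.0909 by limma); between the suspended groups it was -0.27 ± 0.14 (unadjusted p = 0.0987). Hspd1, the barrel of the same chaperonin, read 8.34 and 8.06 in control, 7.62 and 7.89 in suspension, and 7.83 and 7.70 with electroacupuncture, and its differences of -0.44 and -0.43 did not pass. A dimmer cluster of Hspd1 gave -0.61 and -0.78, and a dimmer cluster of Hspe1 gave -0.61 and -0.74.

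The 7 TRiC subunits measured, which fold actin and tubulin, stayed close to control. Their differences in suspension lay between -0.17 for Cct3 and 0.14 for Cct2, with a median of -0.03, and with electroacupuncture between -0.31 and 0.09. The widest 95% half-interval of these 7 was 0.32, so a change of the size seen in Dnajb4 lies outside the interval of each. Cct3 and Cct5 were lower on both arrays of each suspended group than on either control array, Cct2 was higher on all 4, and none passed. Both suspension arrays lay below both control arrays for 28.6% of the 7 (18.5% of all genes) and above them for 14.3% (21.3%). With electroacupuncture these shares were 42.9% (20.0%) and 14.3% (21.8%). Tcp1, the remaining subunit, whose symbol falls outside the choice, differed by 0.25 in suspension. Cct6b, known from the testis, and Cct8l1 were below background.

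Of the 6 BAG genes none passed. Bag3, which is induced through HSF1 and clears damaged filamin at the Z-disc with Hspb8, read 9.24 and 9.38 in control, 8.71 and 8.68 in suspension, and 8.83 and 8.92 with electroacupuncture. Its groups did not overlap, with electroacupuncture between the other groups. The differences were -0.61 ± 0.12 (adjusted p = 0.0667 by limma), -0.43 ± 0.12 (adjusted p = 0.171 by limma) and, between the suspended groups, 0.18 ± 0.12. Bag1, Bag2 and Bag5 differed from control by -0.19, -0.34 and -0.03 in suspension. Bag6, which guides membrane proteins in the cytosol, differed by 0.27 and Bag4 by 0.20. Hspbp1, which releases nucleotide from HSP70, differed by -0.26 in both comparisons with control, and Hspbap1 by 0.20 in suspension and 0.06 with electroacupuncture.

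Between the 2 suspended groups no chaperone gene passed the threshold, and no gene on the array did (0% called lower and 0% called higher by limma). At an unadjusted p under 0.05 there were 300 genes lower and 312 higher with electroacupuncture, among them 1 chaperone gene in each direction: Dnajc22 at -0.42 ± 0.18, which is below background, and Hspb7 as given above. Both electroacupuncture arrays lay below both suspension arrays for 22 of the 87 genes (25.3%, against 17.1% of all genes) and above them for 12 (13.8%, against 15.4%). The electroacupuncture mean lay between the suspension and control means, as for Hspb7 and Bag3, in 43.7% of the 87 genes and 39.3% of all genes. The family medians were -0.05 for HSP70, 0.07 for HSP90, -0.02 for J-proteins, -0.06 for chaperonins and -0.03 for BAG. The small heat shock proteins had a median of 0.17, with 6 of 8 genes above 0. Both electroacupuncture arrays lay above both suspension arrays for 4 of them (Hspb6, Hspb7, Hspb9 and Hspb11) and below them for 1, Hspb2. For Hspb9 and Hspb11 the separation was very small. The nearest electroacupuncture and suspension arrays read 4.349 and 4.345 for Hspb9, and 3.452 and 3.445 for Hspb11, which is close to background. The values for the genes that fell from control were 0.21 ± 0.17 for Hspa1l, -0.11 ± 0.13 for Dnajb4, -0.01 ± 0.13 for Hspa5, 0.05 ± 0.18 for Hsph1 and 0.06 ± 0.13 for Dnaja4. Their 95% intervals, -0.17 to 0.59 for Hspa1l and -0.31 to 0.29 for Hspa5, leave room for differences in either direction.

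Array by array, each family was expressed as the mean deviation of its genes from the control mean. The 13 HSP70 genes deviated by 0.01 and -0.01 on the control arrays, -0.41 and -0.54 in suspension, and -0.61 and -0.47 with electroacupuncture. The small heat shock proteins deviated by -0.11 and 0.11, by -0.37 and -0.39, and by -0.31 and -0.11, so that 1 electroacupuncture array reached a control array. The J-proteins stayed between -0.13 and -0.10 on the 4 arrays of the suspended groups.

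Genes were also grouped by compartment, from lists made after the values had been seen, so that the following is description only. The 8 members of the ER lumen had a median difference of -0.29 in suspension and -0.27 with electroacupuncture, with 7 of 8 below 0. Only Hspa5, Hsp90b1, Dnajb9 and Dnajb11 had an unadjusted p under 0.05 by limma, in both comparisons with control. Other members lay near control: Dnajc3, which also holds an ER stress element, at 0.02 and -0.09, and Dnajc1 at -0.05 and 0.05. The 7 members of the mitochondrial matrix and inner membrane had medians of -0.22 and -0.42, with 6 of 7 below 0. The array values of that group were -0.25 and -0.27 in suspension and -0.38 and -0.33 with electroacupuncture, beside -0.09 and 0.09 in control. The TRiC subunits deviated by between -0.12 and 0.02 on all 6 arrays. A list of 11 known HSF1 targets among the members was also made with their values in view. Its median in suspension was -0.63 and all 11 were below 0, which may only reflect that choice. Hspb8, which holds a heat shock element of 2 units and is not in the list, differed by 0.02.

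**Figure D4:**
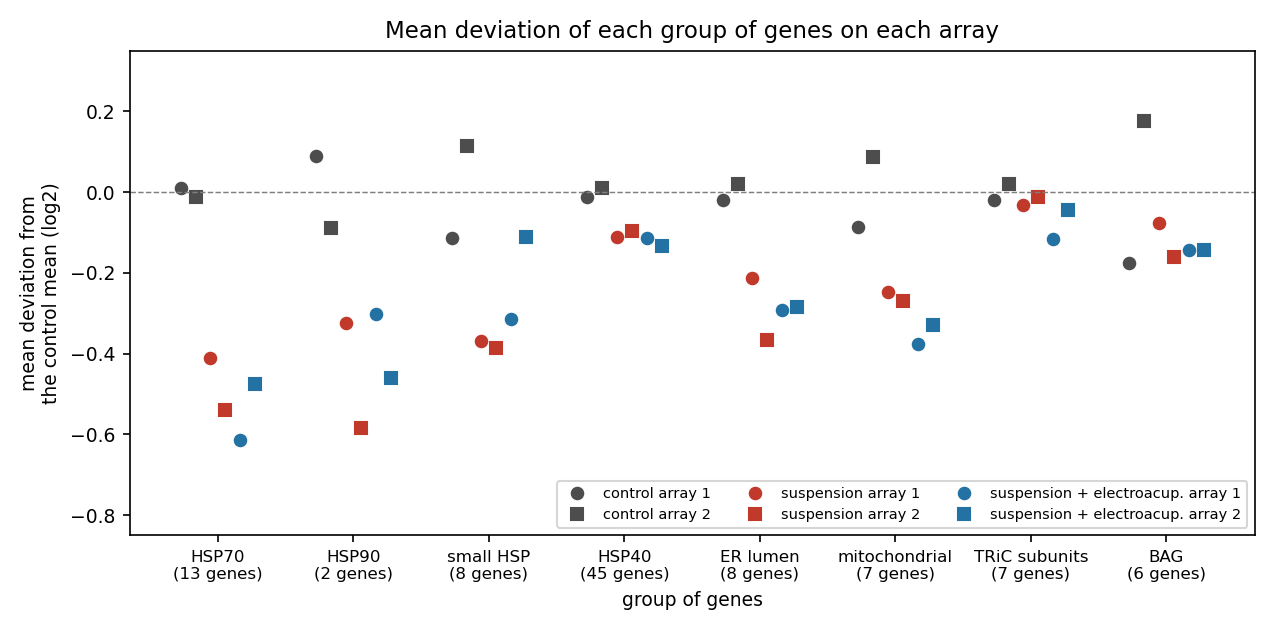
Mean deviation from the control mean (log2, vertical axis) of the genes of each family or compartment on each of the 6 arrays; circles are replicate 1 and squares replicate 2 of a group. The HSP70 genes lie between -0.61 and -0.41 on the 4 arrays of the suspended groups and the TRiC subunits between -0.12 and -0.01.

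Partners of these chaperones were read from 4 further lists. Of 26 measured HSF genes and cochaperones of HSP70 and HSP90, 1 was called higher in suspension and none lower, beside 0.537% and 0.512% of all genes. It was Fkbp5, an HSP90 cochaperone that glucocorticoids induce, at 0.78 ± 0.15 (adjusted p = 0.0468 by limma), and at 0.72 ± 0.15 with electroacupuncture (adjusted p = 0.0619 by limma). Stip1, which links HSP70 to HSP90, differed by -0.52 and -0.47, Cryab, the small heat shock protein alpha-B crystallin, by -0.32 and -0.27, and Unc45b, the myosin chaperone of muscle, by 0.43 and 0.32, none past the threshold. Serpinh1 was the lowest of the list, at -0.54 in suspension and -0.77 with electroacupuncture, and Chordc1 differed by -0.41 and -0.62. Neither passed. At an unadjusted p under 0.05 by limma the list held 11 of 26 genes in suspension, 7 lower and 4 higher. With electroacupuncture against control it held 8, with 5 lower and 3 higher. Over all 19938 genes these counts were 2537 and 2553. The median of the list was -0.09 in suspension. Hsf1 itself was not among the genes measured.

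None of 10 chaperonin partners, 30 genes of the ER stress response or 16 mitochondrial chaperones and proteases passed in any of the 3 comparisons. Their medians in suspension were -0.20, -0.20 and 0.01, beside 0.01 for all genes. In the ER list, Pdia6, a disulphide isomerase that works with BiP, differed by -0.89 ± 0.21 (adjusted p = 0.0996 by limma) and -0.67. Manf, a secreted ER stress protein, differed by -0.68 and -0.78, and Ppp1r15a by -0.22 and -0.86. Herpud1 went the other way, at 0.44 in suspension and 0.45 with electroacupuncture. Of the 30 genes, 18 were below 0 and 12 above in suspension, and 23 and 7 with electroacupuncture. At an unadjusted p under 0.05 the ER list held 8 of 30 genes in suspension, 7 of them lower, and 10 of 30 with electroacupuncture against control, 9 of them lower. Over all 19938 genes the counts were 2537, with 1215 lower, and 2553, with 1264 lower.

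Markers of fibre types and of other cells also differed between the groups. The 10 slow fibre markers had a mean signal of 10.34 to 11.20 on the 6 arrays. They deviated from control by -0.68 and -0.57 in suspension and -0.64 and -0.29 with electroacupuncture. Of the 10, 9 were below 0 in suspension and 10 with electroacupuncture, and 1 (Ankrd2) and 2 (Ankrd2 and Myl3) were called lower. The slow myosin gene Myh7 stayed near control, at -0.14 in suspension and -0.02 with electroacupuncture, and Atp2a2 stood at 0.10 and -0.05. The log2 of their summed signal was 14.70 and 15.03 in control, 14.37 and 14.42 in suspension, and 14.30 and 14.62 with electroacupuncture. Of 10 fast fibre markers 4 were called higher (Actn3, Pvalb, Myh4 and Myh1) and 1 lower (Myh2) in each comparison with control. Of 10 tendon and fibroblast markers 3 were called lower in each, and that list deviated by -0.81 and -1.33 in suspension and by -0.73 and -0.57 with electroacupuncture. Over all genes 0.512% were called lower and 0.537% higher in suspension, and 0.587% and 0.446% with electroacupuncture against control. The 6 measured adipocyte markers differed most between the control arrays, at -0.88 and 0.88. The 9 macrophage markers deviated by 0.56 and -0.16 in suspension and by 0.76 and 0.46 with electroacupuncture. With electroacupuncture both arrays lay above both control arrays for 8 of the 9 (88.9%, against 21.8% of all genes), and none was called. The Schwann cell and red blood cell lists had 3 and 1 measured markers, none called. The part of any of these in the chaperone differences was not tested.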

How the data were processed

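Per the submitters' processing notes, the authors computed log2 signals by RMA, using Affymetrix Expression Console (version not stated); the genome build is not given in the sources used here. The deposited log2 signals of 35556 probe clusters on 6 arrays were used as they stood. Clusters with 1 gene symbol (21789) were kept, those with several (1621) or none (12146) were not; the table can be old, and 21698 matched current genes by Entrez ID. For 999 genes with more clusters the cluster of highest mean stood for the gene. All 19938 genes so obtained were tested, dim ones included. Between genes that are near-identical copies, signal may be shared.

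All 6 arrays in 3 groups entered one limma model (version 3.58.1, R 4.3.3) with a mean-variance trend. It had 3 residual degrees of freedom and a prior worth 5.88, and the median SE of a difference was 0.17. P-values were adjusted by Benjamini and Hochberg over all genes; the threshold was 0.05. The procedure was tested on simulated data. The number of arrays limits the precision. Named were all members past the threshold, the 4 of each family with the smallest unadjusted p, and a set of well-known members. The members were taken by symbol, but the choice of this family, the lists and the named genes were made with earlier results of these data known. The alternatives tried were the variance model, array weights, normalization, a signal filter, the choice of cluster, the arrays in the fit, a replicate block and leaving out each array.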

Additional observations from a re-analysis of the deposited data

How the results depend on the processing

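The counts of chaperone genes called lower (6 in suspension and 7 with electroacupuncture, each against control) moved by over 1.5 times under several alternatives. Without the mean-variance trend they were 2 and 2, with every cluster tested by itself 0 and 0, and with only the compared groups in the fit 2 and 3. Leaving out 1 array gave 0 to 6 in suspension and 0 to 6 with electroacupuncture. At an adjusted p under 0.10 they were 10 and 9. Quantile normalization again and cyclic loess gave 8 and 10, all 6 and all 7 remaining. The cause of these moves was not tested. In no alternative did a chaperone gene pass as higher, or in either direction between the suspended groups. Of the values for single genes, 815 stayed on the same side of the threshold, 86 no longer passed and 14 newly passed. Direction was compared only where a value passed in the main fit or in the alternative, and there 0 reversed.

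The labels number the arrays of each group 1 and 2. Deviations of same-numbered arrays correlated at -0.16 (control and suspension), 0.02 (control and electroacupuncture) and -0.02 (suspension and electroacupuncture). No strong shift shared by same-numbered arrays was seen. Whether same-numbered arrays were handled together is not in the labels, and correlations over genes cannot decide it. With the number as a replicate block 3 genes were called lower in each comparison with control. With the suspension numbers crossed, an alternative added after seeing the data, 9 and 7 were.

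The design has 2 arrays per group, and 9 of the 87 genes had a mean at or below the background level, which limits what their values can show.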
